A study of Mus musculus with 9 samples.

Results

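The 9 genes described here encode transcription factors and a transcriptional co-factor that build the inner ear: Otx2, Gata3, Eya1, Pou3f4, Sox2, Sox9, Sox10, Esrrb and Mitf. They were chosen by name, with earlier results of these data known. Every probe set annotated to them was taken, which gave 19 of the 45101 probe sets on the array, for 9 of 18193 genes with an unambiguous symbol. A probe set is a group of short probes that reports on 1 transcript or a few related ones. The tissue was Reissner's membrane of adult mice, the thin sheet that closes the endolymph-filled duct of the cochlea on its vestibular side, with an epithelial layer facing the endolymph and a mesothelial layer facing the perilymph. Membrane explants kept for 24 h with 100 nM dexamethasone, a synthetic glucocorticoid, formed the dexamethasone group. Explants kept for 24 h without it formed the incubated group, and membranes extracted without incubation formed the fresh group. Each group had 3 arrays, lettered A to C. No strain, genotype or sex was used. For dexamethasone arrays B and C the dose is typed in mM, and for array A, as in the design, in nM. Each biological sample was a pool of membranes read on 3 chips, and the p-values below cover the spread from chip to chip alone, which may be technical.

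The inner ear forms from the otic placode, and its sensory and non-sensory regions are set apart by factors of this kind. Eya1 and Gata3 act early in the placode and vesicle, Sox2 marks the prosensory territory, and Otx2 marks non-sensory epithelium, the roof of the cochlear duct among it. Pou3f4 acts in the mesenchyme around the duct, Sox9 in the otic epithelium and in cartilage, Sox10 in epithelium and neural crest derivatives, Mitf in the pigment cells of the stria vascularis, and Esrrb in the marginal cells of the stria. Mutations of most of these genes cause deafness in humans, alone or as part of a syndrome.

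Signals were linear, scaled by the authors to the same trimmed mean of 500 on every array. Testing was limited to probe sets at 200 or above on 3 or more of the 9 arrays. That held for 18913 probe sets, among them 12 of the 19 described here, from 8 of the 9 genes. Of the other 7, a group of 5 stayed under 200 on all arrays and 2 reached it on 1 or 2 arrays, and Esrrb had no tested probe set. Within groups, log2 signals correlated at 0.984 to 0.989 between arrays, and no 2 arrays held identical values. As a check of the treatment, Zbtb16, a direct glucocorticoid receptor target, averaged 6087.5 ± 32.9 in dexamethasone explants, 630 ± 82.2 in incubated explants and 3261 ± 104 in fresh membranes (SD, n = 3 each). Fkbp5, Per1 and Tsc22d3, the other checked targets of the receptor, were also higher with dexamethasone than in incubated explants. Epithelial markers were bright in every group: the summed signal of 8 measured genes was 76455 to 79740 on dexamethasone, 65225 to 66868.5 on incubated and 34393 to 35861.5 on fresh arrays. On incubation 5 of the 8, Krt8, Krt18, Krt19, Cdh1 and Epcam, were higher, and the sodium channel subunits Scnn1a (-1.08), Scnn1b (-1.20) and Scnn1g (-0.78) were lower. Of 4 mesothelial markers, Upk3b, Wt1 and Lrrn4 stayed under 200 on all arrays. Msln, the fourth, averaged 941 on dexamethasone arrays and 1203 on incubated arrays, against 45.1 on fresh arrays.

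In explants kept for 24 h, every tested probe set of these genes was lower than in fresh membrane: 12 of 12 passed limma's test as lower and 0 as higher (0 also at an unadjusted p under 0.05) at the authors' scaling, against 7 lower and 1 higher when arrays were scaled to their hybridization controls. Over all tested probe sets at the authors' scaling, 40.1% were lower and 35% were higher. A probe set passed at a Benjamini-Hochberg adjusted p under 0.05. The median log2 change of the 12 was -0.71, against -0.05 over all tested probe sets. Gata3 and Sox2 reached 200 on fresh arrays alone, so their selection required a fall. The other 10 reached 200 on all 9 arrays, and all 10 were lower, where 35.7% of the 14073 probe sets at that level on every array were. In a pooled tissue, fewer cells of a type and less RNA per cell cannot be told apart.

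With dexamethasone the 12 divided. Against incubated explants, 3 were higher, 4 were lower and 5 did not pass, where 27.1% of all tested probe sets were higher and 25.5% were lower. The median log2 change of the 12 was 0.03, and over all tested probe sets it was 0.01. Of the 3 that were higher, the Pou3f4 probe set was the one measured above 200 in both groups, and the 4 that were lower belonged to Otx2, Eya1 and Sox9.

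**Figure D1:**
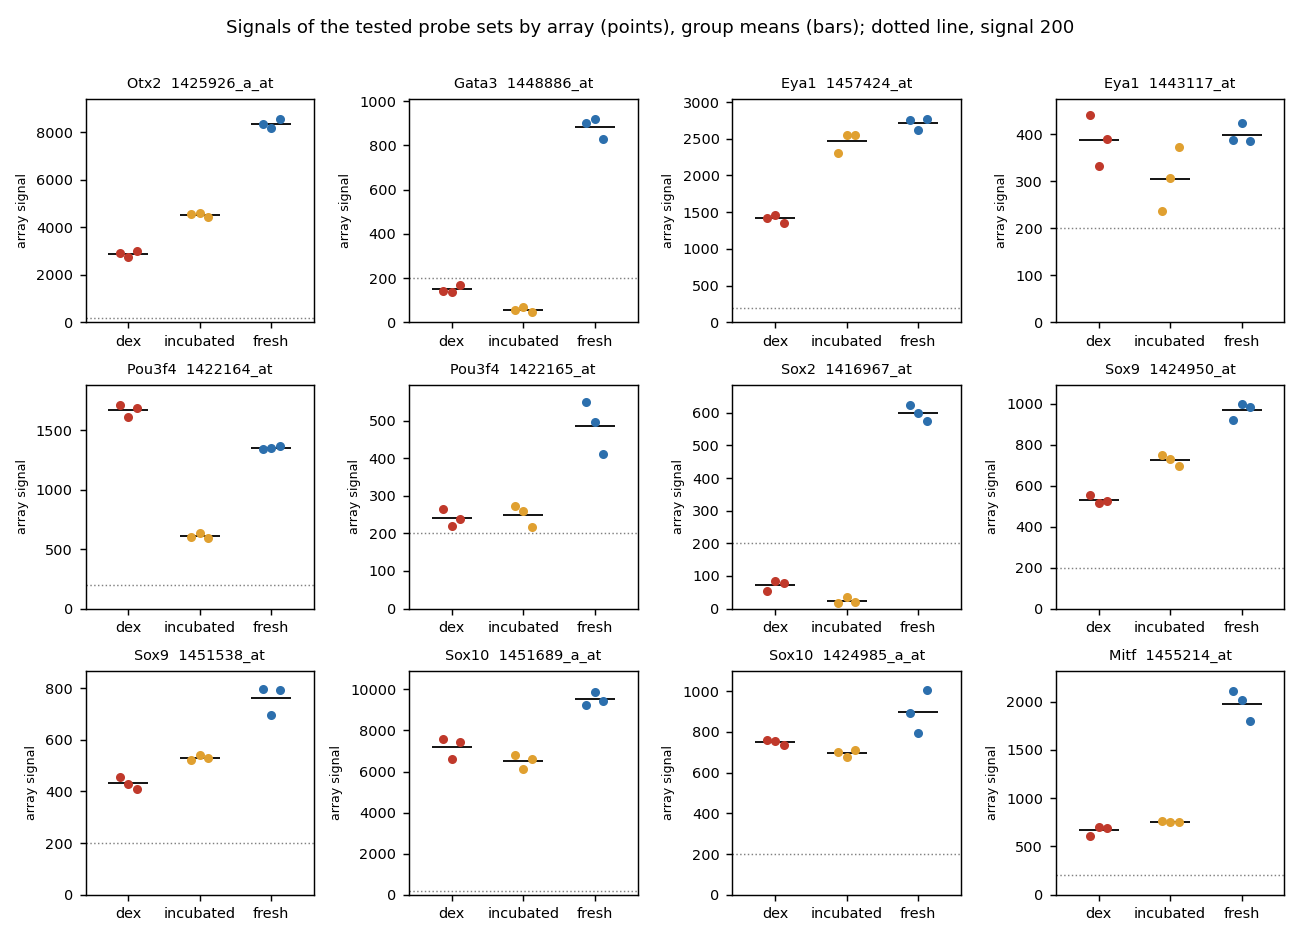
Linear array signals of the 12 tested probe sets, 1 panel each, with dexamethasone explants (red), incubated explants (orange) and fresh membranes (blue). Points are single arrays (3 per group), bars are group means, axes start at 0 and the dotted line is a signal of 200. Fresh membranes have the highest mean in every panel but that of Pou3f4 1422164_at, where dexamethasone explants average 1674 and fresh membranes 1356.

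Otx2 is a homeodomain factor of the head and of non-sensory inner ear epithelium. Its probe set 1425926_a_at gave signals of 2924.9, 2751.1 and 2998.5 in dexamethasone explants, 4551.7, 4593.6 and 4434.6 in incubated explants, and 8328.1, 8187.2 and 8535.0 in fresh membranes. The 3 groups did not overlap, with dexamethasone lowest and fresh highest. The log2 change of signal plus 32 was -0.88 ± 0.046 for incubated against fresh (SE, limma adjusted p = 2.59e-09). It was -0.64 ± 0.046 for dexamethasone against incubated (limma adjusted p = 3.52e-07). The ratios of the means were 0.542 and 0.639.

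Otx2 lies on chromosome 14, 48656781 to 48667644 in GRCm38.p6, on the minus strand. Upstream windows, the 250 bases before an annotated transcript start, were listed by RefSeq for 6 of the 9 genes (12 windows, GRCm38.p6). They are shown for 3 genes whose window lies wholly before the gene: Otx2, Pou3f4 and Sox2. Otx2 was lower in both comparisons, and the Sox2 explant signals were all under 200. Pou3f4 1422164_at was lower in incubated than in fresh and higher with dexamethasone than in incubated. The other tested Pou3f4 probe set, 1422165_at, did not pass with dexamethasone at the authors' scaling. The Otx2 window is at chr14:48667645-48667894 on the minus strand, the Pou3f4 window at chrX:110814129-110814378 on the plus strand and the Sox2 window at chr3:34649745-34649994 on the plus strand. Capitals mark the match found there, ACAAAG, a SOX binding motif.
Otx2: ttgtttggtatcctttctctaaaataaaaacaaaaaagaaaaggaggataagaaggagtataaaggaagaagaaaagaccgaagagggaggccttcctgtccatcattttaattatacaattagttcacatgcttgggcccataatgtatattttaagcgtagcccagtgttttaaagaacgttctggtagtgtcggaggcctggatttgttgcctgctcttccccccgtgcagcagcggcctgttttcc
Pou3f4: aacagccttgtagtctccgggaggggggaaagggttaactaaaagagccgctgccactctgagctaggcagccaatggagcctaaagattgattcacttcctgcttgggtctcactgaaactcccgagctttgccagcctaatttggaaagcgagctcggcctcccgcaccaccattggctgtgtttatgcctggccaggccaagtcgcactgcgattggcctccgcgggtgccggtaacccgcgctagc
Sox2: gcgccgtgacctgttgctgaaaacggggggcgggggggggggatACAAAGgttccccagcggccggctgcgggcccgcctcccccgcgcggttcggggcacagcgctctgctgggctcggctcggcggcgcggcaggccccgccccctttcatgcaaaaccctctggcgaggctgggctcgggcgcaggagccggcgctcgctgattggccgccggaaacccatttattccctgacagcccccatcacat

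The windows were searched on both strands for 7 motifs: the glucocorticoid receptor half-site AGAACA, the OTX site TAATCC, the GATA site AGATAA, the SOX site ACAAAG, the POU octamer ATGCAAAT, the E-box CACGTG and the oestrogen-related receptor site AAGGTCA. The SOX site of the Sox2 window begins 206 bases before the start, and 16.5% of 32851 windows of the same length hold that motif. The half-site AGAACA, present in 16.1% of all windows, occurred in 2 of the 12, an Otx2 window at chr14:48662735-48662984 and an Esrrb window at chr12:86421394-86421643. The OTX site, in 6.25% of all windows, occurred in an Otx2 window at chr14:48665110-48665359 and in 1 of 3 Mitf windows. In that Otx2 window it overlaps the GATA site, a motif of 9.99% of all windows that also lies in the Otx2 window with the half-site. The octamer (1.6% of all windows) and the E-box (6.02%) matched in 0 of the 12, and the oestrogen-related receptor site (4.08%) in 1 Mitf window. A match is a string of letters in a window, and binding was not measured.

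Gata3 encodes a zinc finger factor needed for growth of the otic vesicle and its innervation, and lies on chromosome 2, 9857078 to 9887953. Probe set 1448886_at gave 140.1, 138.8 and 169.7 in dexamethasone explants, 58.2, 68.9 and 47.9 in incubated explants, and 900.9, 919.8 and 830.9 in fresh membranes. Every explant array lay under 200 and every fresh array above 800. Counted against the floor of 200, incubated explants were at least 4.42-fold lower than fresh membranes, which averaged 884 ± 46.8 (SD, n = 3; limma adjusted p = 8.71e-11). Gata3 was tested through its fresh arrays alone, so selection required that fall and the p is no separate support for it. The dexamethasone arrays were all above the incubated ones (limma adjusted p = 2.32e-05), but both groups were below 200 and no fold is given.

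Eya1 encodes a co-factor and phosphatase that works with sine oculis homeobox proteins in the placode, and lies on chromosome 1, 14168953 to 14311035. Its brightest probe set, 1457424_at, gave 1421.4, 1464.7 and 1359.9 in dexamethasone explants, 2302.6, 2546.1 and 2545.8 in incubated explants, and 2749.2, 2625.6 and 2771.6 in fresh membranes. The dexamethasone arrays stood apart below the rest, with a log2 change of -0.79 ± 0.056 against incubated (limma adjusted p = 3.30e-07) and a ratio of means of 0.574. The change for incubated against fresh was -0.14 ± 0.056 (limma adjusted p = 0.0380) at the authors' scaling, and turned positive when arrays were centred on their median (0.19) or scaled to the hybridization controls (0.20). It no longer passed without incubated array A (-0.09), fresh array A (-0.13) or fresh array C (-0.12).

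A second Eya1 probe set, 1443117_at, gave 441.2, 332.9 and 391.0 in dexamethasone explants, 237.2, 307.0 and 373.3 in incubated explants, and 387.6, 424.6 and 386.5 in fresh membranes. Its incubated arrays lay below the fresh ones (log2 change -0.37 ± 0.141, limma adjusted p = 0.0293). That call was lost without incubated array A (-0.22), incubated array B (-0.38) or fresh array B (-0.33). It was also lost under median centring and hybridization control scaling. Dexamethasone and incubated arrays overlapped, and the difference of 0.33 ± 0.141 did not pass (limma adjusted p = 0.0679). It passed without dexamethasone array B (0.43) or incubated array C (0.47). Under hybridization control scaling the difference turned negative and did not pass. At the authors' scaling the 2 probe sets of Eya1 thus had opposite signs with dexamethasone, 1 of them called, and the difference between them was not tested. The third, 1421727_at, had group means of 39.1, 34.6 and 85.0 in dexamethasone, incubated and fresh arrays and was not tested.

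Pou3f4, an X-linked gene at 110814379 to 110819108, encodes a POU homeodomain factor of the otic mesenchyme. Probe set 1422164_at gave 1718.4, 1609.6 and 1692.6 in dexamethasone explants, 601.3, 635.8 and 598.5 in incubated explants, and 1347.3, 1350.7 and 1370.9 in fresh membranes. The groups did not overlap, and incubated was lowest. The log2 change was -1.11 ± 0.056 for incubated against fresh (limma adjusted p = 1.81e-09) and 1.41 ± 0.056 for dexamethasone against incubated (limma adjusted p = 2.91e-09). The dexamethasone mean was 2.74 times the incubated mean. Of the 12 probe sets it was the one called higher with dexamethasone while above 200 on every array.

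The other Pou3f4 probe set, 1422165_at, gave 264.2, 219.6 and 239.1 in dexamethasone explants, 271.6, 259.4 and 216.9 in incubated explants, and 549.1, 495.6 and 409.9 in fresh membranes. It was lower in incubated than in fresh (-0.87 ± 0.123, limma adjusted p = 2.82e-05). Dexamethasone and incubated arrays overlapped, with a difference of -0.04 ± 0.123 (limma adjusted p = 0.798), so the 2 probe sets of this gene disagree for dexamethasone, 1 called higher and 1 not called. With hybridization control scaling the second passed as lower (-0.48). Its signals in both explant groups were close to the floor of 200, and the part of each transcript that the 2 probe sets cover is not analysed here.

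Sox2, which encodes a high mobility group factor of prosensory and supporting cells, lies on chromosome 3, 34649995 to 34652461. Probe set 1416967_at gave 53.0, 84.7 and 79.7 in dexamethasone explants, 15.8, 36.8 and 21.2 in incubated explants, and 622.5, 599.5 and 574.1 in fresh membranes. All explant arrays were under 200. Incubated explants were at least 2.99-fold lower than fresh membranes, which averaged 599 ± 24.2 (SD, n = 3; limma adjusted p = 1.25e-09). As for Gata3, selection through fresh arrays alone required that fall, and the p is no separate support for it. The summed signal of 6 measured supporting cell markers was 1780 to 1854 on dexamethasone, 1354 to 1505 on incubated and 13407 to 13796 on fresh arrays, and 5 of the 5 that were tested were lower in incubated than in fresh. Gjb6 and Otoa, with fresh means of 6445 and 4507, made up most of the fresh sum. Tecta was under 200 on all arrays, and Tectb reached 200 on fresh arrays alone. The part of supporting cells in the Sox2 values was not tested. The dexamethasone arrays were above the incubated ones (limma adjusted p = 7.94e-04), with both groups below 200.

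Sox9, which encodes a relative of Sox2 active in placode invagination and cartilage, lies on chromosome 11, 112782210 to 112787757. Probe set 1424950_at gave 555.2, 516.6 and 524.9 in dexamethasone explants, 748.8, 731.3 and 694.1 in incubated explants, and 922.5, 999.6 and 982.1 in fresh membranes. The groups fell into 3 separate levels, dexamethasone lowest. The log2 change was -0.40 ± 0.067 for incubated against fresh (limma adjusted p = 1.24e-04) and -0.42 ± 0.067 for dexamethasone against incubated (limma adjusted p = 2.00e-04).

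The second Sox9 probe set, 1451538_at, kept the same order of groups, with means of 432 ± 23.8, 531 ± 10.2 and 761 ± 56.9 in dexamethasone, incubated and fresh arrays (SD, n = 3 each). Its log2 changes were -0.49 ± 0.078 for incubated against fresh and -0.28 ± 0.078 for dexamethasone against incubated (limma adjusted p = 8.24e-05 and 0.00942). Both Sox9 probe sets lost the call for incubated against fresh, and kept a negative sign, under median centring (-0.07 and -0.16) and hybridization control scaling (-0.08 and -0.17). The third, 1433889_at, stayed under 200 on all arrays.

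Sox10, a SOX factor of glia, melanocytes and otic epithelium, lies on chromosome 15, 79154913 to 79164490. Probe set 1451689_a_at gave 7569.2, 6601.3 and 7413.9 in dexamethasone explants, 6810.2, 6142.6 and 6630.6 in incubated explants, and 9219.5, 9888.2 and 9457.7 in fresh membranes. Every explant array was below every fresh array, and the 2 explant groups overlapped. The log2 change was -0.54 ± 0.060 for incubated against fresh (limma adjusted p = 2.86e-06). For dexamethasone against incubated it was 0.14 ± 0.060 and did not pass (limma adjusted p = 0.0679), though it passed without dexamethasone array B (0.20) and turned to a passing -0.35 under hybridization control scaling.

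Probe set 1424985_a_at of Sox10 gave means of 751 ± 11.8, 696 ± 17.3 and 897 ± 107 in dexamethasone, incubated and fresh arrays (SD, n = 3 each). Its log2 change was -0.35 ± 0.080 for incubated against fresh (limma adjusted p = 0.00172), a call lost under median centring and hybridization control scaling (-0.02 each). With dexamethasone it differed from incubated by 0.10 ± 0.080 (limma adjusted p = 0.297), and by -0.37 under hybridization control scaling, where it passed. The third probe set, 1425369_a_at, stayed under 200 on all arrays.

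Mitf encodes the basic helix-loop-helix factor that directs pigment cell fate, and lies on chromosome 6, 97807002 to 98021360. Probe set 1455214_at gave 609.9, 700.8 and 694.5 in dexamethasone explants, 764.3, 756.9 and 751.5 in incubated explants, and 2109.5, 2017.5 and 1794.6 in fresh membranes. Both explant groups were far below the fresh arrays, with a log2 change of -1.34 ± 0.075 for incubated against fresh (limma adjusted p = 4.54e-09) and a ratio of means of 0.384. Every dexamethasone array was below every incubated one, yet the difference of -0.18 ± 0.075 did not pass (limma adjusted p = 0.0649). It passed under median centring (-0.29), under hybridization control scaling (-0.65) and without fresh array C (-0.18, limma adjusted p = 0.0472).

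The other Mitf probe set, 1422025_at, was under 200 on every array and was not tested, with means of 114 ± 26.9, 57.8 ± 7.11 and 180 ± 14.3 in dexamethasone, incubated and fresh arrays (SD, n = 3 each). Of 5 melanocyte markers, Tyr, Tyrp1, Pmel and Mlana were under 200 on all arrays. Dct, an enzyme of melanin synthesis and the one that was tested, averaged 79.6 ± 21.9 in dexamethasone, 107 ± 20.3 in incubated and 900 ± 70.0 in fresh arrays (SD, n = 3 each), at least 4.50-fold lower in incubated than in fresh. Dct reached 200 on fresh arrays alone, so its selection required that fall. The part of pigment cells in the Mitf values was not tested.

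Esrrb, an orphan nuclear receptor of strial marginal cells, lies on chromosome 12, 86361117 to 86521628, and had 3 dim probe sets. Probe set 1441921_x_at, of a type that can bind several transcripts, gave 84.6, 72.8 and 90.7 in dexamethasone explants, 41.1, 62.0 and 65.4 in incubated explants, and 289.7, 216.4 and 126.9 in fresh membranes. Probe set 1436926_at gave 24.2, 17.1 and 17.0 in dexamethasone explants, 23.4, 30.4 and 24.6 in incubated explants, and 196.2, 248.2 and 177.8 in fresh membranes. On both, every fresh array was above every explant array, and 2 and 1 of the fresh arrays reached 200. Neither was tested, and 1422986_at was under 200 on all arrays. The summed signal of 5 measured strial marginal cell markers was 4313 to 4519 on dexamethasone, 4651 to 4832 on incubated and 22704 to 23951 on fresh arrays. Atp1b2 and Slc12a2, with fresh means of 11987 and 10001.5, made up most of the fresh sum. Kcnq1 and Kcne1 averaged 868 and 277 on fresh arrays. Bsnd, the chloride channel subunit of strial marginal cells, was under 200 on all 9.

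**Figure D2:**
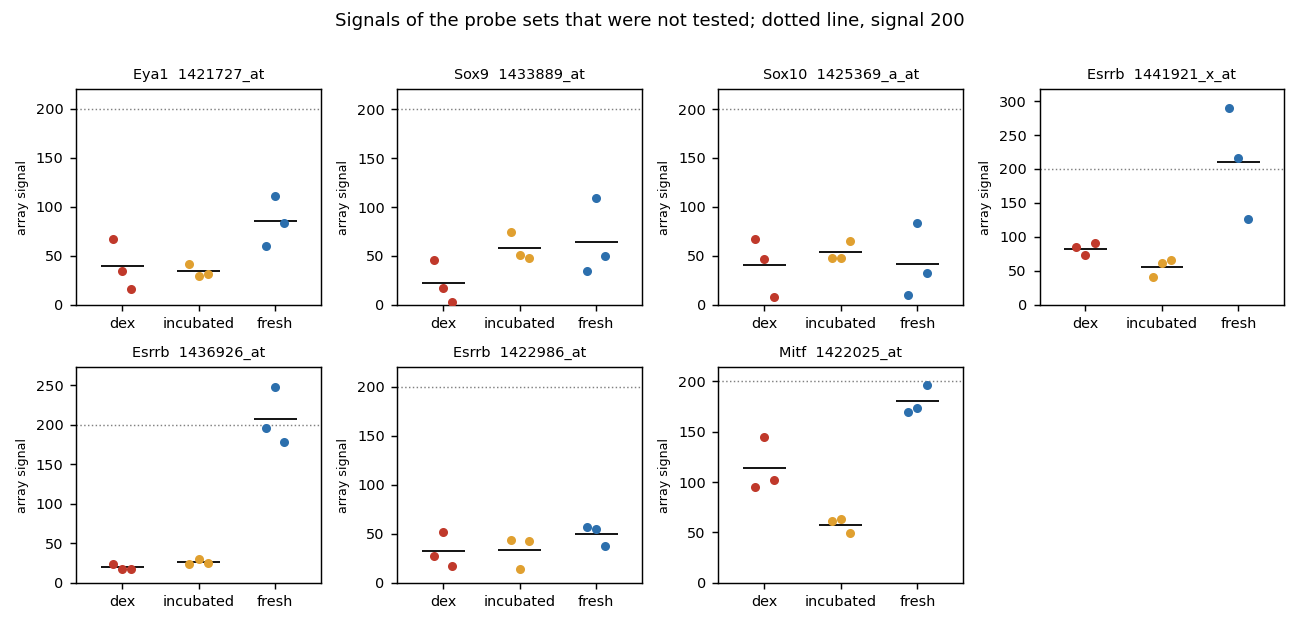
Linear array signals of the 7 probe sets that were not tested, with dexamethasone explants (red), incubated explants (orange) and fresh membranes (blue), 3 arrays each as points and group means as bars. The dotted line is a signal of 200, which 2 fresh arrays pass for Esrrb 1441921_x_at and 1 for Esrrb 1436926_at.

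Dexamethasone explants were also set against fresh membranes, a comparison that shares its arrays with the other 2. It called 1 probe set higher and 10 lower, with 1 not called, where 37.8% and 38.4% of all tested probe sets were. Among the 10, Gata3 (-2.34) and Sox2 (-2.61) were tested through fresh arrays alone, so their selection required that fall. Both also enter the median that follows. The median log2 change of the 12 was -0.87, against -0.01 over all tested probe sets. Pou3f4 1422164_at was the one called higher (0.30 ± 0.056, limma adjusted p = 3.27e-04), a call lost under hybridization control scaling (0.15). Eya1 1443117_at was the one not called (-0.04 ± 0.141, limma adjusted p = 0.781). Otx2 and Mitf stood at -1.52 ± 0.046 and -1.52 ± 0.075, while Sox10 1424985_a_at, at -0.24 ± 0.080 (limma adjusted p = 0.0153), lost its call without fresh array C (-0.16) and under median centring (-0.03).

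**Figure D3:**
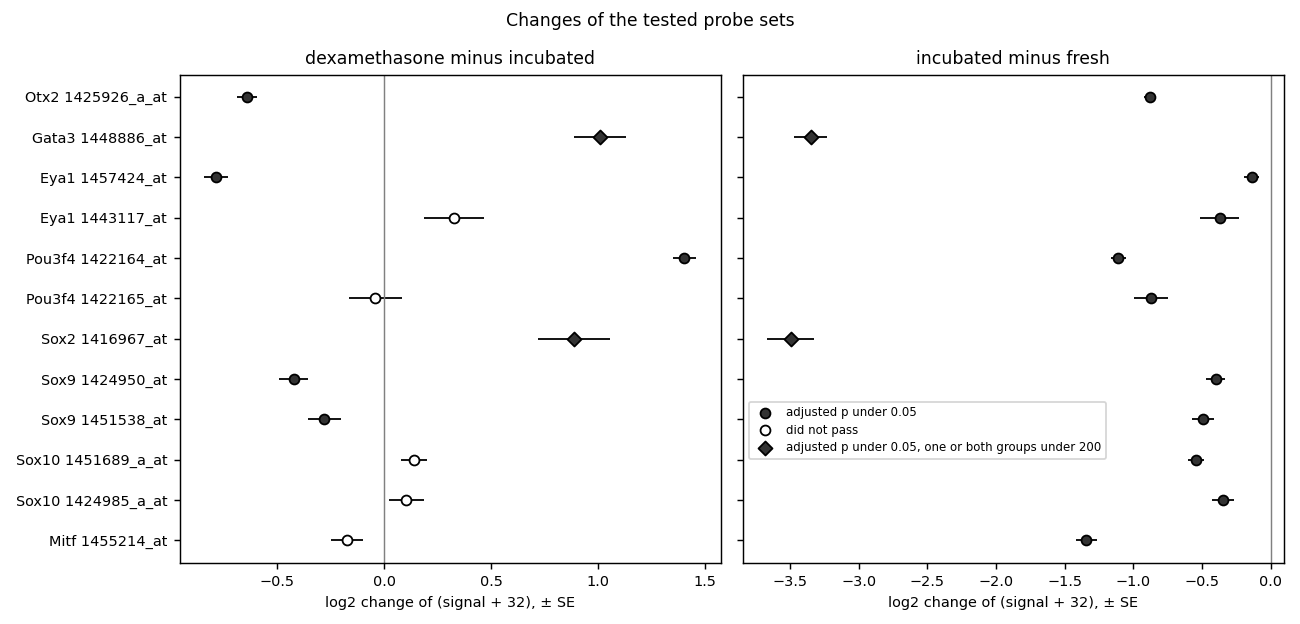
Log2 change of signal plus 32 for each tested probe set, dexamethasone minus incubated on the left and incubated minus fresh on the right; bars are standard errors (3 arrays per group). Filled symbols passed at an adjusted p under 0.05 and diamonds mark changes in which a group lay under 200. All 12 lie below 0 on the right at the authors' scaling (Eya1 1457424_at turns to 0.20 with hybridization control scaling), and on the left they run from -0.79 to 1.41.

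The direction of small changes depended on how arrays were put on a common scale. The authors' scaling equalizes the trimmed mean. Median centring moved the median log2 change over all tested probe sets to 0.28 for incubated against fresh, and scaling to 9 hybridization control probe sets moved it to 0.27. For dexamethasone against incubated the medians became -0.11 and -0.45, and for dexamethasone against fresh 0.21 and -0.15. Among all calls for incubated against fresh, 46.6% were higher at the authors' scaling, 69.4% after median centring and 69.1% after hybridization control scaling. For dexamethasone against incubated the shares were 51.5%, 33.3% and 9.13%, and for dexamethasone against fresh 49.6%, 63.6% and 39.3%.

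Against those shifts, the members called lower in incubated than in fresh under all 4 scalings were Otx2, Gata3, both Pou3f4 probe sets, Sox2, Sox10 1451689_a_at and Mitf, 7 of 12. Gata3 and Sox2 were tested through fresh arrays alone, so their selection required that fall. Of all 18913 tested, 4461 were lower in this comparison with median centring and 4382 with hybridization control scaling. How many were lower under all 4 is not given here. For dexamethasone against incubated, hybridization control scaling gave 3 member probe sets higher and 8 lower, where 1347 and 13413 of all 18913 tested were. Median centring gave 3 and 5, where 3464 and 6953 of all were. Pou3f4 1422164_at stayed higher with dexamethasone, and Otx2, Eya1 1457424_at and both Sox9 probe sets stayed lower, under all 4.

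**Figure D4:**
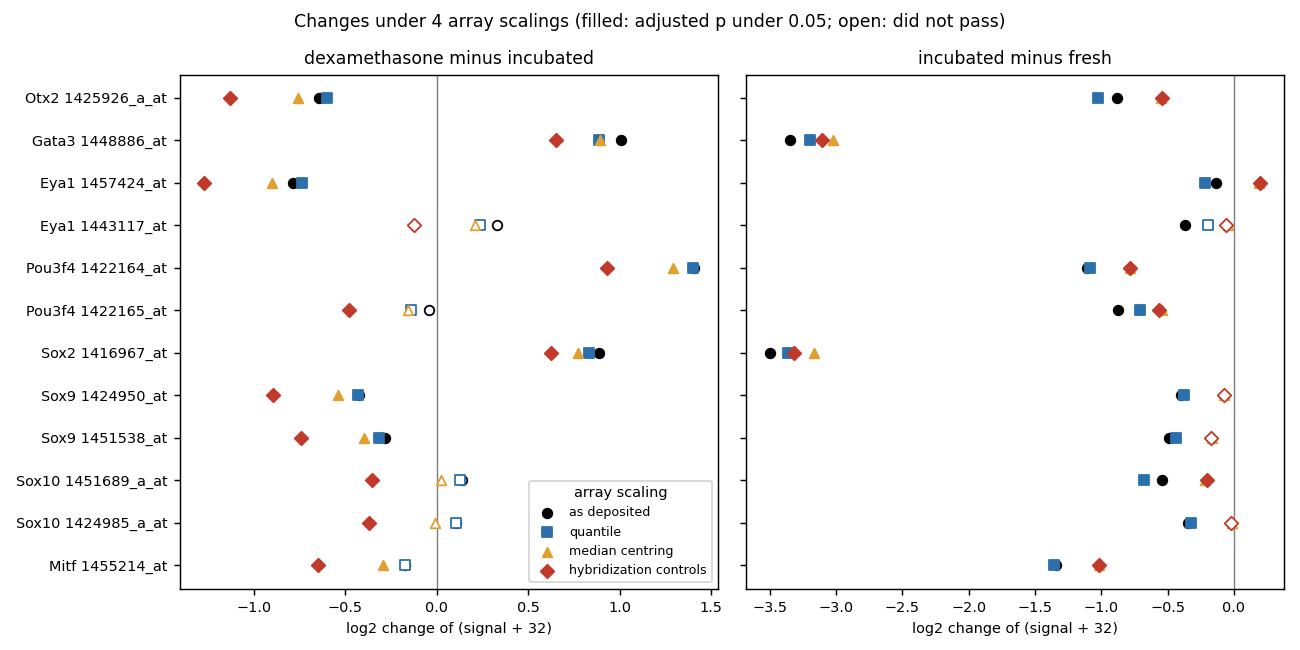
Log2 change of signal plus 32 of the 12 tested probe sets under the authors' scaling, quantile normalization, median centring and hybridization control scaling, dexamethasone minus incubated on the left and incubated minus fresh on the right. Filled symbols passed at an adjusted p under 0.05, and no error bars are drawn. Eya1 1457424_at crosses 0 on the right (to 0.19 and 0.20 with median centring and hybridization controls), and both Sox10 probe sets cross it on the left with hybridization controls (-0.35 and -0.37). Changes of sign that passed at neither scaling, such as that of Eya1 1443117_at on the left with hybridization controls, are not listed.

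Relatives and partners of the 9 genes were taken from 9 lists of 103 genes, chosen with earlier results of these data known. Each gene was read from its tested probe set with the highest mean signal. Of 98 measured, 55 were tested. For incubated against fresh, 40 were lower and 7 were higher at the authors' scaling, and 30 and 14 with hybridization control scaling, where 40.7% of all 10242 tested genes were lower and 36% were higher at the authors' scaling. Their median log2 change was -0.59, against -0.04 over all genes, and 9 of the 55 reached 200 on fresh arrays alone. For dexamethasone against incubated, 12 were higher and 16 lower at the authors' scaling, where 22.3% of all genes were higher and 28.7% were lower. With hybridization control scaling 3 were higher and 42 lower, where 1347 and 13413 of all 18913 tested probe sets were. At the authors' scaling the median of the 55 was -0.05, and that of all genes -0.03.

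Among the Pax, sine oculis homeobox, Eya and Dach genes, 5 of 7 tested passed on incubation, all as lower, while median centring gave 3 lower and 1 higher. Eya4, a paralogue of Eya1 and a deafness gene, changed by -0.48 ± 0.046 for incubated against fresh and by 0.27 ± 0.046 for dexamethasone against incubated. With median centring the first shrank to -0.15. With hybridization control scaling it lost the call (-0.14, limma adjusted p = 0.0753), and the second turned to -0.22. Dach1 and Dach2, co-repressors that work with Eya proteins, were lower with dexamethasone than in incubated explants. Dach1 averaged 721 ± 45.6, 1347 ± 232 and 1762 ± 39.4 in dexamethasone, incubated and fresh arrays (SD, n = 3 each). Dach2 averaged 1107 ± 76.8, 1994 ± 83.5 and 2425.5 ± 80.7 (SD, n = 3 each), at the authors' scaling the same order of groups as Eya1 1457424_at. With median centring and hybridization control scaling, incubated against fresh did not pass for Dach1 (-0.07 and -0.06) or Dach2 (0.05 each). Eya1 1457424_at turned positive there. Six5, a homeodomain gene of this network, was at least 1.79-fold lower in incubated than in fresh.

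Of 7 tested SOX genes beside the members, 6 were lower and 1 was higher in incubated than in fresh under all 4 scalings. Sox4, which is broadly expressed in progenitors, was the one that rose, with means of 1430 in dexamethasone, 2583 in incubated and 950 in fresh arrays. Its log2 changes were 1.41 for incubated against fresh and -0.84 for dexamethasone against incubated (limma adjusted p = 1.05e-09 and 8.57e-07). Sox6, which works with Sox9 in cartilage, and its relative Sox13 were at -1.11 and -1.36 for incubated against fresh. Sox17, an endothelial and endodermal factor read by a probe set that can bind several transcripts, was at least 1.15-fold lower. Sox11 (-0.45) was lower with dexamethasone than in incubated explants, as was Sox4, and the other 5 did not pass there.

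Both tested POU genes, Pou3f3 (-0.75) and Pou6f1 (-1.18), were lower in incubated than in fresh, and Pou3f3 (-0.39) but not Pou6f1 (-0.04) passed as lower with dexamethasone. Gata2, a relative of Gata3, changed by -0.70 for incubated against fresh and by -0.36 for dexamethasone against incubated. Of the zinc finger co-factors of GATA proteins, Zfpm2 was lower on incubation at the authors' scaling (-0.33) and Zfpm1 passed in neither comparison there. Otx1, the paralogue of Otx2, passed in neither at the authors' scaling (-0.04 and -0.20). Otx1 did pass as higher on incubation with median centring and hybridization control scaling (0.28 each), and as lower with dexamethasone there (-0.31 and -0.67). Gata1, Gata4, Gata5, Gata6 and the hair cell POU gene Pou4f3 were under 200 on all arrays.

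Among oestrogen-related receptors and their co-regulators, 5 of 6 were lower in incubated than in fresh and 1 was higher, and with hybridization control scaling 3 and 1. Esrrg, a paralogue of Esrrb, was at least 2.24-fold lower, and the coactivator Ppargc1a changed by -1.55. Nrip1, a co-repressor of nuclear receptors, was higher in incubated than in fresh (1.21) and lower with dexamethasone than in incubated (-0.78). Ppargc1b (-0.64) and Ncoa3 (-0.40) were also lower with dexamethasone. Of the MiT family, to which Mitf belongs, Tfe3 was higher on incubation (0.72) and Tfeb did not pass at the authors' scaling (0.00), though 2 of 2 passed as higher with median centring and with hybridization control scaling.

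Among 17 other otic patterning factors, 12 were lower and 2 were higher on incubation, and 10 and 5 with hybridization control scaling. Of the 17, 1 reached 200 on fresh arrays alone, so its selection required a fall. Prrx2, a homeodomain gene of mesenchyme, had means of 1943, 2181 and 197 in dexamethasone, incubated and fresh arrays (log2 change 3.30 for incubated against fresh). Tbx3, a T-box repressor, was the other that rose (0.88), and it was lower with dexamethasone than in incubated (-0.73), as were Tbx2 (-0.41), Emx2 (-0.63) and Prrx1 (-0.44). With dexamethasone 5 of the 17 were higher and 7 were lower, and with hybridization control scaling 14 passed, all as lower. That scaling called 13413 of all 18913 tested probe sets lower with dexamethasone than in incubated. Of 10 prosensory, hair cell and neuron factors, 8 were lower and 2 higher on incubation, and 5 of the 10 reached 200 on fresh arrays alone. Isl1, a LIM homeodomain factor of prosensory cells and neurons, averaged 127 in dexamethasone, 49.3 in incubated and 1405 in fresh arrays. With dexamethasone 5 of these passed, all as higher, and with hybridization control scaling 3 were higher and 4 lower. Id1, which blocks bHLH factors, rose most among the 5, with a mean of 5776 ± 153 in dexamethasone, 1687 ± 120 in incubated and 1078 ± 42.9 in fresh arrays (SD, n = 3 each). Id2 (0.86) and Id3 (0.60) were higher too, as were Isl1 and Hey1, whose explant signals were all under 200.

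**Figure D5:**
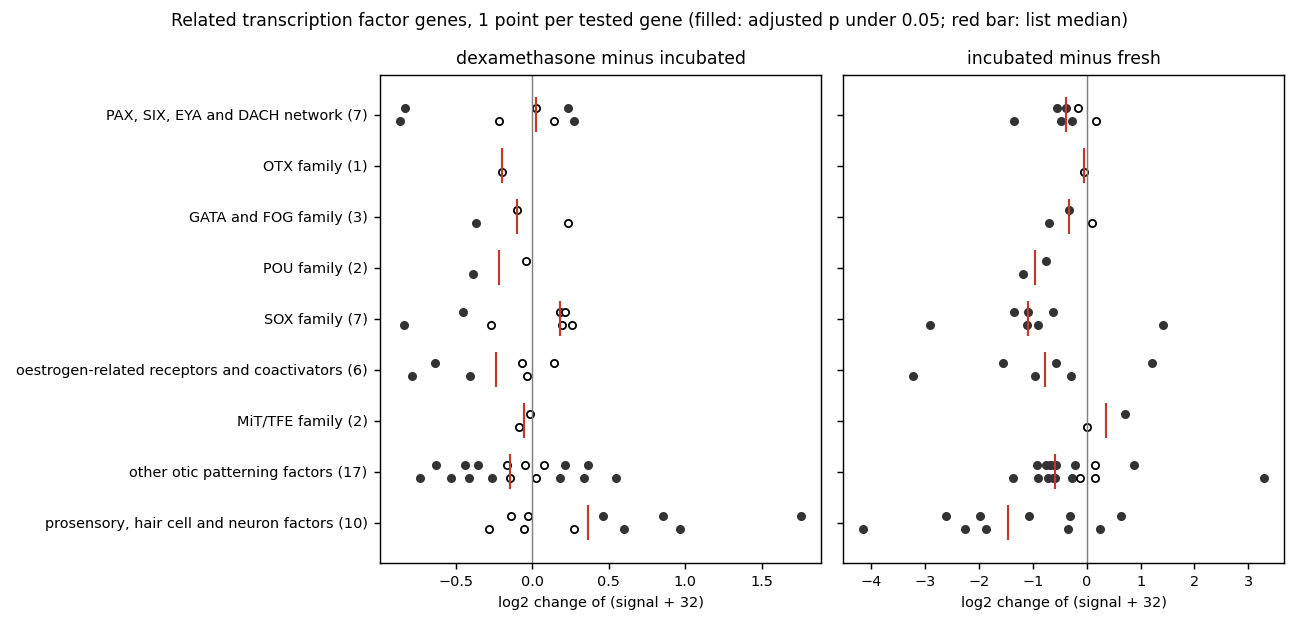
Log2 change of signal plus 32 for the 55 tested relatives and partners, 1 point per gene by list (number of tested genes in brackets), dexamethasone minus incubated on the left and incubated minus fresh on the right, at the authors' scaling. Filled points passed at an adjusted p under 0.05 and red bars are list medians. On the right, the list medians run from -1.47 (prosensory, hair cell and neuron factors) to 0.36 (MiT/TFE family); the sign of the left medians of the PAX and SOX lists and of the right median of the OTX list turns under another scaling.

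Genes known to depend on 3 of the factors were read beside them. Of 6 tested cartilage-type matrix genes regulated by Sox9, 6 were lower in incubated than in fresh, and 5 of them reached 200 on fresh arrays alone. Col9a3, a chain of collagen IX, had means of 258, 186 and 2041 in dexamethasone, incubated and fresh arrays (log2 change -3.25 for incubated against fresh). Acan and Col11a2, the aggrecan core protein and a collagen XI chain, were at least 3.05-fold and 4.48-fold lower. With dexamethasone 2 of the 6, Col9a3 and Col11a1, were higher than in incubated, and with hybridization control scaling 1 was higher and 1 lower.

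Of 6 tested Schwann cell and myelin genes regulated by Sox10, 4 were lower and 2 were higher on incubation, with a median of -0.26 that became 0.07 with hybridization control scaling and 0.06 with median centring. S100b, a calcium-binding protein of glia and other cells, had means of 243 ± 76.0, 216 ± 46.1 and 14752 ± 411 in dexamethasone, incubated and fresh arrays (SD, n = 3 each). Mbp, which encodes myelin basic protein, had means of 4393, 3612 and 3340 and was the one tested gene of the Schwann cell marker list. The summed signal of that list's 2 measured genes was 4335 to 4561.5 on dexamethasone, 3554 to 3743 on incubated and 3322 to 3551 on fresh arrays, and its Mag was under 200 on all arrays. Of 5 tested pigment cell genes regulated by Mitf, 3 were lower on incubation, Dct, Slc45a2 and Rab27a, each of which reached 200 on fresh arrays alone. The other 2, Gpnmb (at least 2.38-fold) and Met (0.11), were higher at the authors' scaling, and Met became 0.00 under quantile normalization.

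Markers of tissues next to the membrane moved with the incubated against fresh comparison. All 7 tested fibrocyte markers were lower, 1 of them tested through fresh arrays alone, and their summed signal was 3196 to 3460 on dexamethasone, 4200 to 4518 on incubated and 61377 to 63410 on fresh arrays. Coch, an extracellular protein of the spiral ligament, had means of 405 ± 11.9, 152 ± 7.58 and 15914 ± 353 in dexamethasone, incubated and fresh arrays (SD, n = 3 each). The 7 tested neuron markers reached 200 on fresh arrays alone, so their selection required a fall. The sums over 8 genes were 246 to 325 on dexamethasone, 176 to 251 on incubated and 17064.5 to 18111 on fresh arrays. The 2 tested hair cell markers, Myo7a and Otof, were likewise selected through fresh arrays alone. The sums over 7 genes were 247 to 364 on dexamethasone, 221 to 240 on incubated and 1076 to 1295 on fresh arrays, and Slc26a5, Tmc1, Cdh23, Strc and Chrna9 were under 200 on all arrays. Of 7 tested macrophage markers 5 were higher and 1 lower, and their list's sums were 7037 to 7117 on dexamethasone, 5749 to 6096 on incubated and 4752 to 5045 on fresh arrays. Of the 2 tested endothelial markers, Kdr was lower (-2.30) and Emcn was lower at the authors' scaling (-0.17) but higher with median centring (0.16), and it did not pass with quantile normalization or hybridization control scaling. The endothelial sums were 1588 to 1872 on dexamethasone, 1424 to 1488 on incubated and 3085 to 3383 on fresh arrays. The red blood cell sums were 12.5 to 84.5 on dexamethasone, 94.4 to 142 on incubated and 1140 to 1200.5 on fresh arrays. The part of these tissues in the members' changes was not tested.

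Genes whose signals followed each member most closely over the 9 arrays were found among 10241 others by the mean absolute difference of centred log2 signals. For Otx2 they were Smim13, Sesn3 and Slc46a1, with differences of 0.051, 0.052 and 0.053. For Pou3f4 they were Scnn1a, Cfp and Ebf1 (0.074, 0.076 and 0.089). Scnn1a, the alpha subunit of the epithelial sodium channel, averaged 2692 ± 132 in dexamethasone, 918 ± 36.3 in incubated and 1982 ± 136 in fresh arrays (SD, n = 3 each). For Gata3 they were Clic6, Auts2 and Cacnb4, and for Sox2 Elavl3, Clic6 and Cytl1, at 0.111 to 0.166. For Eya1 they were Trappc2, Fam117a and Igtp, and for Mitf Slc6a15, Slc7a8 and Meis1, at 0.050 to 0.065. For Sox9 they were Alad, Sik3 and Pisd-ps3, and for Sox10 Odr4, Tmem50b and Arhgef12, at 0.027 to 0.039. The 9 arrays hold 3 groups, so these genes share a pattern of 3 group means, and many genes can share one.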

How the data were processed

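RNA from pooled Reissner's membranes was amplified in 2 rounds of in vitro transcription and measured on 9 Affymetrix arrays, 3 per group, per the labels' protocols. For each probe set the deposited table gives a linear intensity, brought by the authors to a target of 500 on every array, per the labels. The summarising software is not given in the sources used here. Between 36.0% and 39.4% of probe sets reached 200 on an array. No detection calls were used, and the number of arrays limits the precision.

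Groups were taken from sample titles. Log2 of signal plus 32 was fitted with 1 mean per group in limma 3.58.1 (R 4.3.3; eBayes with an intensity trend), with Benjamini-Hochberg adjustment over the 18913 tested probe sets, the 64 control probe sets left out. Folds against a group under 200 on its 3 arrays were bounded with 200. The fit was tested on simulated data. Probe sets were named through the platform annotation, in which 34945 had 1 symbol, 932 several and 9160 none, and positions and promoters came from RefSeq (GRCm38.p6). Of 211 distinct list genes, 193 matched, and the others are not analysed here. The lists were read by counts and medians. The rule for named genes took every member probe set, the 3 genes most like each member, up to 4 called genes with the smallest adjusted p of each list and comparison, all genes of lists with 5 or fewer tested, and 4 glucocorticoid targets. Hey1, Acan and genes named as under 200 or not passing fell outside it, chosen once their values had been seen. The members and lists were chosen with earlier results of these data known. Alternatives were other scalings, pseudocounts, floors and fits, single arrays left out and a replicate block. Tables were handled with pandas 2.3.3 and NumPy 2.4.6, and figures drawn with matplotlib 3.10.9 in Python 3.11.15.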

Additional observations from a re-analysis of the deposited data

How the results depend on the processing

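Of 210 recomputed counts, 195 stayed within 1.5 times the count at the authors' scaling. Of 717 recomputed changes of single probe sets, 684 kept their side of the threshold, 22 lost the call and 7 gained one. A change of sign that passed in neither fit counts among the 684. The other 4 changed sign with a call in either fit. Those 4 were Eya1 1457424_at for incubated against fresh with median centring (0.19) and hybridization control scaling (0.20), and Sox10 1424985_a_at and 1451689_a_at for dexamethasone against incubated with hybridization control scaling (-0.37 and -0.35). With median centring and with hybridization control scaling, 1 member probe set was higher and 7 were lower in incubated than in fresh, and 14 related genes were higher. Of all 18913 tested probe sets, median centring called 10110 higher and 4461 lower there, and hybridization control scaling 9799 and 4382. With hybridization control scaling 8 member probe sets and 42 related genes were lower and 3 related genes higher with dexamethasone than in incubated. Over all 18913 tested probe sets that scaling called 13413 lower and 1347 higher there. In dexamethasone against fresh, it gave 0 member probe sets higher and limma called 10 lower, and an unadjusted p under 0.05 also gave 0 higher. In that comparison it called 5490 of all 18913 tested probe sets higher and 8491 lower. Counting all 99 tested probe sets of the related genes gave 19 higher and 66 lower on incubation and 23 and 33 with dexamethasone. At the authors' scaling, 35% of all 18913 tested probe sets were higher and 40.1% were lower on incubation. With dexamethasone 27.1% of all were higher and 25.5% were lower. Leaving out 1 array at a time gave 10 to 12 member probe sets lower on incubation and 3 to 5 higher with dexamethasone. The count of 5 came without dexamethasone array B. Shares of all tested probe sets in these fits, and with the replicate block below, are not given here. The cause of these differences between scalings was not tested, beyond the shift of all probe sets that the scalings bring by construction. Arrays of the same letter did not pair: the correlations of their deviations ran from -0.06 to 0.16. With chip letter as a replicate block, 11 member probe sets were lower on incubation, where Eya1 1457424_at no longer passed (limma adjusted p = 0.0543), and 3 were higher and 4 lower with dexamethasone. Signals under 200 limit what can be said of Gata3, Sox2 and Esrrb in explants. Gata3 and Sox2 were tested through fresh arrays alone, so their selection required their falls against fresh in the counts above.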
